A study of Mus musculus with 32 samples.

Results

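Hox genes encode homeodomain transcription factors and lie in 4 clusters, a to d, each on a chromosome of its own. The genes described here are all those with a probe set that the platform annotation assigns to exactly 1 symbol made of Hox, a cluster letter and a paralogue number. 33 such genes were measured among 18193 genes on the array: 9 in cluster a, 9 in cluster b, 7 in cluster c and 8 in cluster d. By paralogue number, 10 were anterior genes (1 to 4), 9 central genes (5 to 8) and 14 posterior genes (9 to 13). Each gene was read from the brightest of its probe sets, by the mean of all arrays, as a log2 signal, on which 1 unit is a 2-fold difference. 31 of the 33 had at least 1 group mean at or above log2 4.05, the 40th percentile of all values, and were tested; Hoxa4 and Hoxd12 stayed below it and were not.

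Along a Hox cluster the paralogue number follows the order of the genes on the chromosome. In the mouse embryo the anterior genes are switched on first, in the primitive streak and the mesoderm that leaves it, and the posterior genes follow later and nearer the tail, a rule known as collinearity. Hox proteins bind DNA together with TALE homeodomain cofactors of the Pbx, Meis and Pknox families. Cdx factors and retinoic acid are known to activate the clusters, and Polycomb complexes are known to hold them silent in pluripotent cells. Primordial germ cells (PGCs), the founders of sperm and eggs, arise beside mesoderm that expresses Hoxb1, and Blimp1 is known to be needed for PGC precursors to keep such genes off.

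The study compared PGC-like cells (PGCLCs) made by transcription factors with PGCLCs made by cytokines, with their precursors, the epiblast-like cells (EpiLCs), and with embryonic stem cells (ESCs). 32 Affymetrix arrays covered 16 groups of 2 arrays, 22 of them new and 10 from an earlier series. In the new set, BP14A, BP14, P14A and P14 cells carried piggyBac transgenes for Avi-tagged Blimp1 (gene Prdm1, B), 3xFLAG-tagged Prdm14 (P14) and V5-tagged Tfap2c (A), in the combination each name gives, under tetOx8-mCMV with IRES-beta geo. They were aggregated from 36 h EpiLCs at 2000 cells per well and given doxycycline (Dox) at 1.5 μg/ml for 2 days, and BP14A cells also for 4 days; no cytokine is named for them. Cytokine PGCLCs (Ck) came from the parental clone, without factor transgenes, for 2 or 4 days in 500 ng/ml BMP4, 500 ng/ml BMP8A, 50 ng/ml EGF, 100 ng/ml SCF and 1000 U/ml LIF. Parental cells with Dox for 2 days were the negative control, and EpiLCs of the same parental clone at 36 h the starting point of the parental and Ck cells. BP14A ESCs were taken as stella-ECFP positive cells at day 2 of Dox, and without Dox. All new cells were male, on a C57BL/6 and 129 background, with Blimp1-mVenus, stella-ECFP and Rosa26-rtTA; ESCs were kept in 2i+LIF. The earlier arrays held Ck PGCLCs at day 6, 48 h EpiLCs and ESCs, which were male C57BL/6 cells with Blimp1-mVenus and stella-ECFP, together with stella-EGFP PGCs at E9.5 and epiblast at E5.5, both C57BL/6 and of unknown sex. The labels name a single parental clone and no sort or reporter gate for the PGCLCs. Both samples of a group are described as biological duplicates, with no separate cultures or litters named, so the p-values reflect how far these arrays differ. New and earlier arrays were not tested against each other.

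Array medians ran from 4.62 to 4.78 before normalization, and replicate arrays correlated at 0.9663 to 0.9860 over all genes. Of the 3 factor genes, Prdm14 lay between 8.32 and 9.83 on the 10 arrays of the Dox-treated transgenic PGCLCs, against 2.87 and 2.85 in parental cells with Dox. It was also high without a transgene, at 8.4 and 8.8 in Ck day 2 cells, and without Dox, at 9.99 and 10.08 in BP14A ESCs. Prdm1 and Tfap2c did not separate carriers from the other transgenic cells: P14 cells, which carry neither transgene, had 10.29 and 10.17 for Prdm1, against 5.49 and 5.77 in parental cells with Dox, and were higher in Tfap2c by 4.52 ± 0.29. Whether these probe sets read transgene RNA, endogenous RNA or both was not tested. Of 7 measured germ cell markers 3 are the factor genes themselves, and the other 4, Dppa3, Dnd1, Kit and Itgb3, were higher in BP14A day 2 cells than in parental cells with Dox. The Gapdh 5′ minus 3′ log2 signal, a sign of RNA quality or of amplification, lay between -1.62 and -0.07 on 25 arrays and below -2 on 7: both BP14A day 4 arrays, both of BP14A ESCs with Dox (-2.14 and -3.13), and replicate 1 of BP14 cells (-4.07), of 36 h EpiLCs (-3.03) and of BP14A ESCs without Dox (-2.82). With 2 arrays a group, the number of arrays limits the precision. In these bulk samples, fewer cells of a type and less RNA per cell cannot be told apart.

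Promoter sequences are shown for 4 genes on which the results below turn: Hoxb1 and Hoxa2, which moved together, Hoxd9, which was higher in Ck day 2 cells than in parental cells with Dox, and Hoxc4, which was high in ESCs and PGCs. They come from RefSeq on GRCm38.p6 and run 5′ to 3′ on the strand of the gene, from upstream of its start to just past it. Capitals mark TGATTNAT on either strand, a motif of the kind that Pbx and Hox proteins bind together. The windows are chr11:96365508-96365807 on the plus strand for Hoxb1, chr6:52164782-52165081 on the minus strand for Hoxa2, chr2:74697513-74697812 on the plus strand for Hoxd9 and chr15:103034145-103034444 on the plus strand for Hoxc4.
Hoxb1: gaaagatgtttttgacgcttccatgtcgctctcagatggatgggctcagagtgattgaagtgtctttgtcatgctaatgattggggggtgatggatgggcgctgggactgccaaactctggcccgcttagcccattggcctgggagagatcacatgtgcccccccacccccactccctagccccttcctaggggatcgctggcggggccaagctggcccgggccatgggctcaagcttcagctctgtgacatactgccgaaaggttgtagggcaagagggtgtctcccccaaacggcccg
Hoxa2: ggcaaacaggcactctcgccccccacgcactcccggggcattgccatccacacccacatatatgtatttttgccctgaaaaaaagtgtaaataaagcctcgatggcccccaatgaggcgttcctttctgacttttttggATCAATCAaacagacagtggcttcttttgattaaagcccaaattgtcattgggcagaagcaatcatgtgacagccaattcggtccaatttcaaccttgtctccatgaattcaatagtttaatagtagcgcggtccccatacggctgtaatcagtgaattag
Hoxd9: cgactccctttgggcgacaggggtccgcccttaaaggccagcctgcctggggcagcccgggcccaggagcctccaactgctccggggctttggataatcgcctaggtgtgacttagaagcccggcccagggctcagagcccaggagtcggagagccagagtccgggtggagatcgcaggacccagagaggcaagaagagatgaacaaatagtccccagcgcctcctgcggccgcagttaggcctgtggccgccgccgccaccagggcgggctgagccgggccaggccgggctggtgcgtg
Hoxc4: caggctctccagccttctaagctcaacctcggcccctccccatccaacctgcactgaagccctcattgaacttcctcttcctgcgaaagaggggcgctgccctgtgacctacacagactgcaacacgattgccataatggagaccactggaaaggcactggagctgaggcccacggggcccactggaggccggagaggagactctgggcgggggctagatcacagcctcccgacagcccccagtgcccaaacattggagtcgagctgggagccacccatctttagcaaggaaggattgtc
Entries existed for 19 of the 33 genes, with 21 windows. TGATTNAT was found in 2 of the 21 windows, at Hoxa2 and at the downstream of the 2 Hoxd11 starts, and in 3.22% of all 32851 windows of the same length. TTTATNG, a motif of the kind Cdx proteins bind, was found in 0 of the 21 and in 10.9% of all windows, and TATAAA in 2 of the 21, at Hoxa10 and Hoxd13, and in 13.6% of all windows. The Hox windows had a median of 15 CpG dinucleotides, against 7 over all windows.

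20 of the 31 tested genes differed in at least 1 of 20 comparisons, by limma at a Benjamini-Hochberg adjusted p under 0.05 over 15497 genes and a difference of at least 2-fold; 47.2% of all tested genes did so. Calls below use this rule, and rose, fell, higher and lower are said only of calls. A gene needed only 1 group mean at log2 4.05 to be tested, so in some calls both group means lay below it. These were the calls of Hoxc13, of Hoxb3 against parental cells and of Hoxb5 in Ck day 4 cells against EpiLCs. They also include Hoxc8 in epiblast against ESCs, and Hoxc10 and Hoxd1 in 36 h EpiLCs against BP14A ESCs. The 11 tested genes with no call were Hoxa3, Hoxa5, Hoxa7, Hoxa9, Hoxa11, Hoxa13, Hoxb4, Hoxb7, Hoxc6, Hoxd8 and Hoxd13; their group means spanned 0.49 to 2.61 units from the lowest to the highest group. For Hoxa3, Hoxa5, Hoxa9, Hoxc6, Hoxd8 and Hoxd13 another probe set of the same gene did move. 11 of the 33 genes had more than 1 probe set, 48 in all, and a fit of every probe set, added after the data were seen, tested 41 of them; its results are given beside those of the genes. The map of all 33 genes shows where each one departed from its own mean.

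**Figure D1:**
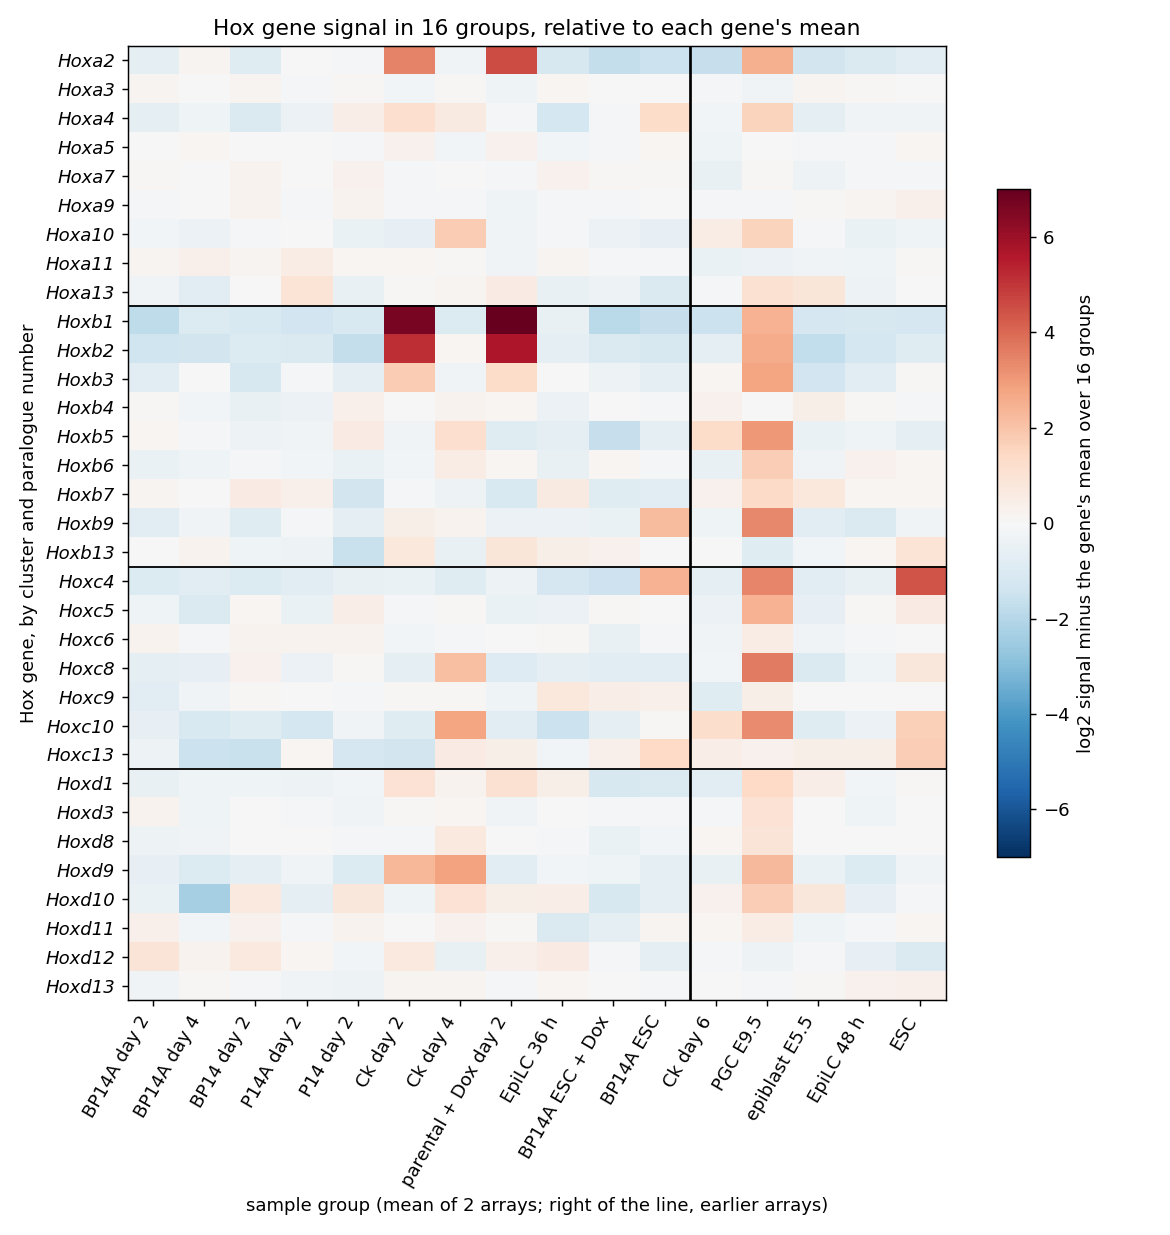
Each cell is the mean log2 signal of 1 Hox gene (down the page, by cluster and paralogue number) in 1 group of 2 arrays (across), minus that gene's mean over the 16 groups, from blue (lower) to red (higher). Hoxa2, Hoxb1 and Hoxb2 stand out in Ck day 2 and parental cells with Dox, Hoxa10, Hoxc8, Hoxc10 and Hoxd9 in Ck day 4, Hoxc4 in both ESC groups without Dox, and most of clusters b and c in E9.5 PGCs.

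In the cytokine series, the anterior genes Hoxb1, Hoxb2 and Hoxa2 were high at day 2 and low before and after. Hoxb1, the most 3′ gene of cluster b and a marker of streak mesoderm and hindbrain, had 3.71 and 3.54 in EpiLCs at 36 h, 10.63 and 11.01 in Ck PGCLCs at day 2, and 3.15 and 3.23 at day 4. Hoxb2, its neighbour, had 3.74 and 3.49 in EpiLCs, 9.42 and 9.51 at day 2 and 4.03 and 4.82 at day 4. Hoxa2, a patterning gene of the hindbrain and the neural crest of the second branchial arch, had 1.49 and 2.31 in EpiLCs, 6.69 and 6.32 at day 2 and 2.67 and 2.92 at day 4. In each of the 3 genes the 2 arrays of day 2 lay far above all 4 arrays of EpiLCs and day 4.

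In Ck day 2 cells against EpiLCs, 4 of the 31 tested Hox genes rose and 0 fell, where 8.42% of all genes tested rose. Hoxb1 rose by 7.20 ± 0.46 log2 units (SE; adjusted p = 8.83e-10), Hoxb2 by 5.85 ± 0.59 (adjusted p = 3.58e-07) and Hoxa2 by 4.60 ± 0.65 (adjusted p = 2.19e-05). The fourth was posterior: Hoxd9, a limb and trunk patterning gene, had 6.92 and 6.98 at day 2 against 4.42 and 4.52 in EpiLCs, a rise of 2.48 ± 0.46 (adjusted p = 0.000433). The median difference over the 33 Hox genes was 0.31, against -0.04 over all genes. By paralogue number the medians were 1.24 for the anterior, 0.04 for the central and 0.10 for the posterior genes. At the level of probe sets, 9 of 41 rose (7.18% of all 27255 probe sets tested), which added Hoxa3, Hoxa4, Hoxa5 and Hoxd8. The Hoxa5 probe set 1448926_at had 5.9 and 5.9 at day 2 against 2.6 and 1.6 in EpiLCs, and the brightest Hoxa5 probe set 7.27 and 6.96 against 6.81 and 6.41.

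From day 2 to day 4 of cytokine induction, 4 of the 31 tested genes fell (6.84% of all genes) and 4 rose (5.68% of all genes). The 4 that fell, of 10 anterior genes, had paralogue numbers 1 to 3: Hoxb1 fell by 7.63 ± 0.46 (adjusted p = 1.8e-09), Hoxb2 by 5.04 ± 0.59 (adjusted p = 3.12e-06), Hoxa2 by 3.70 ± 0.65 (adjusted p = 0.000277) and Hoxb3 by 2.07 ± 0.69 (adjusted p = 0.0392). Hoxb3 had 1.47 and 3.0 at day 4 against 3.69 and 4.91 at day 2, and its call was lost without Ck day 2 replicate 2 (-1.46) and without Ck day 4 replicate 1 (-1.30). The 4 that rose were 1 central and 3 posterior genes. Of the posterior genes, Hoxc13 had group means of 3.69 at day 4 and 1.88 at day 2, both below the log2 4.05 filter level. Hoxc10, a gene of lumbar and hindlimb levels, had 5.95 and 5.74 at day 4 against 2.37 and 2.08 at day 2 (difference 3.62 ± 0.53, adjusted p = 3.84e-05). Hoxc8, a gene of thoracic levels, had 4.90 and 4.58 against 2.05 and 1.99 (2.72 ± 0.50, adjusted p = 0.000457). Hoxa10, known for its part in the uterus and the hindlimb, had 6.08 and 5.84 against 3.86 and 3.37 (2.34 ± 0.35, adjusted p = 5.94e-05). Hoxc13, known from hair follicles, had 3.81 and 3.58 against 1.92 and 1.83 (1.82 ± 0.60, adjusted p = 0.0344), and its call was lost without any single array of these groups (1.71 to 1.93). In EpiLCs Hoxc13 had 2.43 and 3.47, and Ck day 4 cells had no Hoxc13 call against them. The median difference was -0.66 for the anterior genes, 0.17 for the central genes and 0.09 for the posterior genes, and 0.01 over all genes.

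Probe sets gave a similar division, but central genes went both ways, with a fall of Hoxa5 beside the rise of Hoxc8. The Hoxa5 probe set 1448926_at had 3.6 and 3.1 at day 4, against 5.9 and 5.9 at day 2. 7 of 41 fell (5.83% of all probe sets) and 5 rose (4.78%), which added falls of Hoxa3 and Hoxa5 and a rise of Hoxa9. The Hoxa9 probe set 1455626_at had 6.0 and 6.9 at day 4, against 3.1 and 3.4 at day 2. The mean of all probe sets ended the Hoxa10 calls of Ck day 4 against day 2 (0.80) and against EpiLCs (0.90), since the second Hoxa10 probe set did not move. The plot of change by paralogue number shows both steps.

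**Figure D2:**
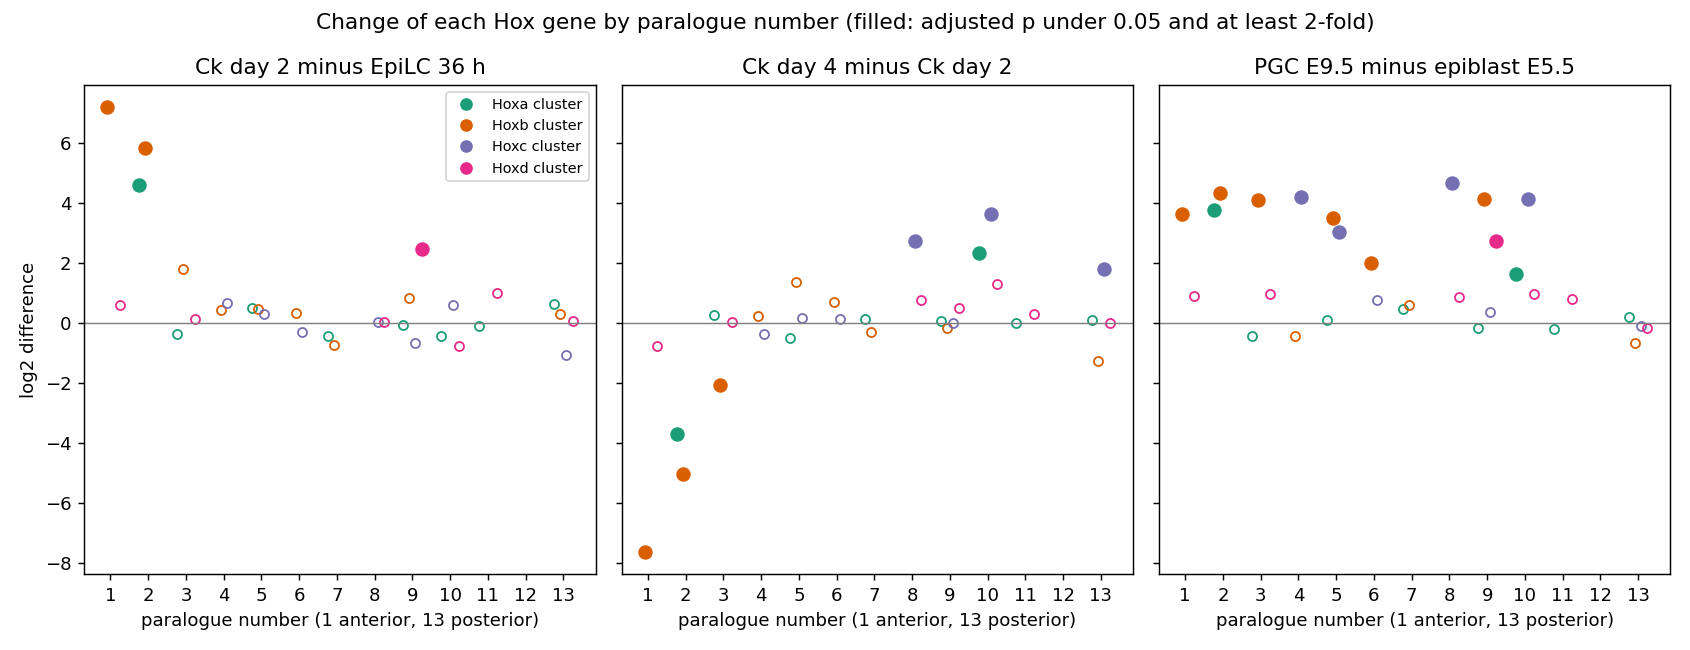
Points are Hox genes, with paralogue number across and the log2 difference between the 2 group means up the page, coloured by cluster and filled where called; the panels show Ck day 2 minus EpiLC 36 h, Ck day 4 minus Ck day 2 and PGC E9.5 minus epiblast E5.5. Hoxb1 reaches 7.20 and then falls by 7.63, the 4 filled points above 0 in the second step are Hoxc8, Hoxa10, Hoxc10 and Hoxc13, and filled points spread from 1 to 10 in PGCs.

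Against the same EpiLC arrays, the calls of Ck day 4 cells lay in central and posterior genes. 6 of the 31 tested genes were higher and 0 lower, where 9.0% of all genes were higher. Hoxc10 was higher by 4.24 ± 0.53 (adjusted p = 4.16e-06), Hoxd9 by 2.98 ± 0.46 (adjusted p = 5.42e-05), Hoxc8 by 2.77 ± 0.50 (adjusted p = 0.000271) and Hoxa10 by 1.90 ± 0.35 (adjusted p = 0.000355). Hoxd9 had 7.51 and 7.39 at day 4, next to its 6.92 and 6.98 at day 2, a step of 0.50 that was not called. Hoxb5 had 3.10 and 3.44 against 1.22 and 1.64 in EpiLCs (1.84 ± 0.67, adjusted p = 0.0461), and Hoxd11 4.54 and 4.76 against 3.66 and 3.05 (1.29 ± 0.43, adjusted p = 0.0295). Neither of these held up: the Hoxb5 call was lost without any 1 of the 4 arrays (1.63 to 2.06), and the Hoxd11 call without EpiLC replicate 2 (0.99), Ck day 4 replicate 1 (1.40) or Ck day 4 replicate 2 (1.19).

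In parental cells with Dox, which carry no factor transgene, Hoxb1, Hoxb2 and Hoxa2 also rose by day 2; the comparison shares the EpiLC arrays with that of Ck cells. Hoxb1 had 11.46 and 10.99 in these cells, against 3.71 and 3.54 in EpiLCs (7.60 ± 0.46, adjusted p = 4.78e-10). Hoxb2 had 10.17 and 9.67 against 3.74 and 3.49 (6.31 ± 0.59, adjusted p = 1.66e-07), and Hoxa2 8.09 and 7.08 against 1.49 and 2.31 (5.68 ± 0.65, adjusted p = 2.02e-06). These 3 were the calls among 31 tested genes, with 0 lower, and 7.23% of all genes were higher. Among probe sets 6 of 41 were higher (6.47% of all), which added Hoxa3 and Hoxa5. Probe set 1427433_s_at of Hoxa3 had 6.9 and 5.2 in parental cells with Dox, against 2.3 and 2.9 in EpiLCs.

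Set directly against parental cells with Dox, Ck day 2 cells differed in 1 Hox gene. As described, these groups differ in both cytokines and Dox, which cannot be told apart here. Hoxd9 had 6.92 and 6.98 in Ck day 2 cells, against 3.63 and 4.08 in parental cells with Dox (3.10 ± 0.46, adjusted p = 0.000216), where 2.32% of all genes were higher. None of Hoxb1 (-0.41 ± 0.46), Hoxb2 (-0.46 ± 0.59) and Hoxa2 (-1.08 ± 0.65) was called in this comparison, which does not show that their levels were equal. The probe sets added Hoxd8, whose 1433638_s_at had 4.9 and 5.2 against 2.5 and 3.3. Markers of other cell types differed between these groups. Of 13 measured markers of the primitive streak and nascent mesoderm, 9 rose from EpiLCs in Ck day 2 cells and 5 in parental cells with Dox, and their mean level was 7.0 and 7.37 in Ck day 2 cells and 5.73 and 6.03 in parental cells with Dox, against 4.38 and 4.14 in EpiLCs. In the direct comparison 4 of the 13 were higher in Ck day 2 cells and 1, Eomes, was lower (8.04 and 8.16 against 9.38 and 10.51). Of 6 endoderm markers 3 were lower in Ck day 2 cells and 0 higher. Mesp1, a marker of nascent mesoderm, had 9.32 and 10.14 in Ck day 2 cells against 5.71 and 6.00 in parental cells with Dox, while Foxa2, a marker of endoderm and axial mesoderm, had 4.24 and 4.59 against 9.93 and 10.52. The part of these cells in the Hox signals was not tested.

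In all 4 transgenic groups, also on Dox for 2 days, Hoxb1, Hoxb2 and Hoxa2 were lower than in parental cells with Dox. Clone differs with the transgenes, and no transgenic aggregates without Dox were measured, so clone and induced factors cannot be told apart. Hoxb1 had 2.45 and 2.27 in BP14A cells, 3.05 and 3.13 in BP14 cells and 3.10 and 2.55 in P14A cells at day 2, and P14 cells had 3.36 and 2.78, against 11.46 and 10.99 in parental cells with Dox. Every one of these 8 arrays lay at least 7 units below both parental arrays. Hoxb2 had 3.57 and 2.14 with BP14A, 3.30 and 3.36 with BP14, 3.35 and 3.13 with P14A and 2.75 and 2.42 with P14, against 10.17 and 9.67 in parental cells with Dox. Hoxa2 had 1.99 and 2.74 with BP14A, 2.64 and 1.68 with BP14, 3.23 and 2.89 with P14A and 2.68 and 3.22 with P14, against 8.09 and 7.08 in parental cells with Dox. All 8 transgenic arrays stayed clear of the parental cells in the 3 genes.

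**Figure D3:**
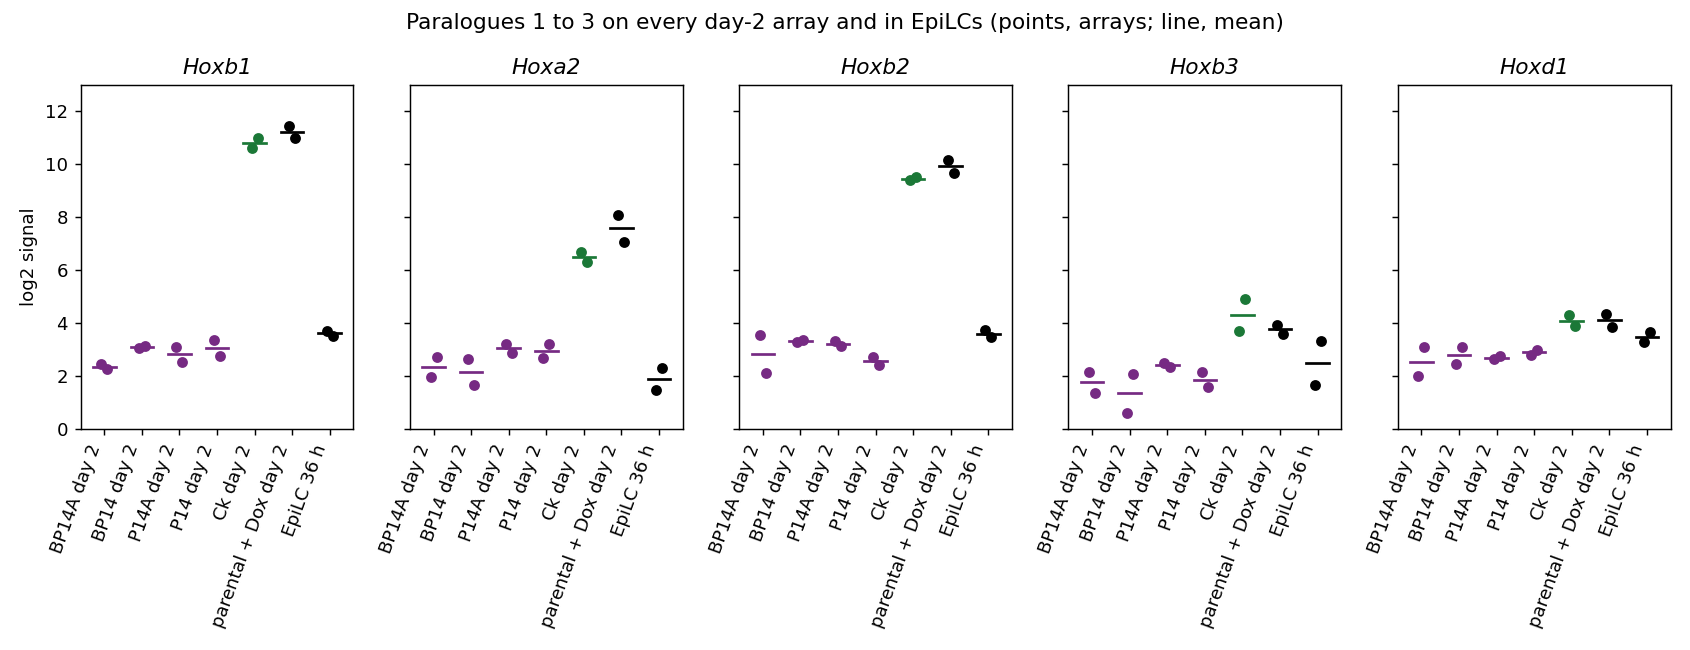
Points are arrays and short lines group means of log2 signal for Hoxb1, Hoxa2, Hoxb2, Hoxb3 and Hoxd1 in the 4 transgenic groups (purple), Ck day 2 (green), and parental cells with Dox and EpiLCs (black). Hoxb1 lies between 2.27 and 3.36 on the 8 transgenic arrays, against 10.63 to 11.46 in Ck day 2 and parental cells.

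BP14A day 2 cells were lower than parental cells with Dox in 5 of 31 tested Hox genes and higher in 0 (7.25% of all genes were lower). BP14 cells were lower in 6 and higher in 0 (6.43%), P14A cells lower in 4 and higher in 0 (6.81%), and P14 cells lower in 4 and higher in 0 (6.60%). These 4 comparisons share the parental arrays. Hoxb1 differed by -8.86 ± 0.46 in BP14A cells, by -8.13 ± 0.46 in BP14 cells, by -8.40 ± 0.46 in P14A cells and by -8.15 ± 0.46 in P14 cells, with adjusted p between 4.66e-11 and 1.47e-10. The Hoxb2 differences were -7.06, -6.59, -6.69 and -7.33 (SE 0.59), and those of Hoxa2 -5.22, -5.43, -4.53 and -4.64 (SE 0.65), in the same order of groups. The median over the anterior genes lay between -1.11 and -0.69 in the 4 comparisons, that over the posterior genes between -0.18 and 0.13, and that over all genes between 0.03 and 0.05. The probe sets of Hoxa3 and Hoxa5 named above were also lower in all 4 groups, by 2.80 to 3.36 units for 1427433_s_at and 2.31 to 3.50 units for 1448926_at.

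The other calls against parental cells were smaller and, except that of Hoxb13 in P14 cells, less secure. Hoxd1, an anterior gene of the most 3′ group, had 2.00 and 3.11 in BP14A, 2.48 and 3.11 in BP14 and 2.66 and 2.76 in P14A cells, against 4.35 and 3.88 in parental cells with Dox. It was lower by 1.56 ± 0.43 in BP14A (adjusted p = 0.0114), by 1.32 ± 0.43 in BP14 (adjusted p = 0.033) and by 1.41 ± 0.43 in P14A cells (adjusted p = 0.0241). Each of these calls was lost without parental replicate 1 (-1.32, -1.08 and -1.17) and without replicate 1 of the transgenic group (-1.0, -1.01 and -1.36); that of BP14 cells was also lost without parental replicate 2 (-1.56) and that of P14A cells without P14A replicate 2 (-1.45). Hoxb3 had 2.17 and 1.38 in BP14A and 0.62 and 2.09 in BP14 cells against 3.94 and 3.61 in parental cells with Dox. It was lower by 2.00 ± 0.69 in BP14A (adjusted p = 0.0434), a call that no fit without 1 array kept (-2.39 to -1.61), and by 2.42 ± 0.69 in BP14 cells (adjusted p = 0.0158), a call lost without BP14 replicate 1 (-1.68), parental replicate 1 (-2.25) or parental replicate 2 (-2.58). 2 posterior genes were each called in 1 group. For Hoxb13, P14 cells had 2.30 and 2.29 and parental cells with Dox 4.51 and 4.87 (-2.39 ± 0.48, adjusted p = 0.00101). Hoxc13 had 0.81 and 2.31 in BP14 cells against 3.10 and 4.00 (-1.99 ± 0.60, adjusted p = 0.0204), lost without BP14 replicate 1 (-1.24) or parental replicate 2 (-1.54). BP14 replicate 1, without which the Hoxd1, Hoxb3 and Hoxc13 calls of BP14 cells were lost, is the array with the Gapdh 5′ minus 3′ signal of -4.07; in replicate 2 it was -0.37. Whether the 4 transgenic groups differ from one another in these genes was not tested.

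Markers of the other day-2 fates moved with these genes. 5 of 13 streak and mesoderm markers were lower than in parental cells with Dox in each of the 4 transgenic groups, and 4, 3, 3 and 4 of 6 endoderm markers were lower in BP14A, BP14, P14A and P14 cells. The mean level of the endoderm list was 4.67 to 5.40 on the 8 transgenic arrays, against 7.62 and 7.82 in parental cells with Dox, and that of the streak list 4.03 to 4.27 against 5.73 and 6.03. Their part in the Hox differences was not tested.

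BP14A day 2 cells were also set against the 36 h EpiLCs, which are of the parental clone, so that clone and day cannot be told apart. 1 of 31 was higher (6.25% of all genes) and 1 lower (5.36% of all genes), with a median over the 33 of -0.04 and over all genes of -0.01. Hoxc9, a gene of thoracic levels, had 4.23 and 3.03 in BP14A cells against 5.18 and 5.07 in EpiLCs (-1.49 ± 0.43, adjusted p = 0.0171). Hoxd11, a limb gene, had 4.64 and 4.75 against 3.66 and 3.05 (1.34 ± 0.43, adjusted p = 0.0322). Both calls were lost without EpiLC replicate 2 (-1.54 and 1.04) and without BP14A replicate 2 (-0.89 and 1.29); that of Hoxc9 also without EpiLC replicate 1 (-1.43), and that of Hoxd11 also without BP14A replicate 1 (1.40). Hoxb1 had 2.45 and 2.27 in BP14A cells, below the 3.71 and 3.54 of EpiLCs, without a call (-1.26 ± 0.46). From day 2 to day 4 limma called 0 of 31 Hox genes in BP14A cells, and 1 had an unadjusted p under 0.05; 1.43% of all genes were called in either direction. EpiLC replicate 1, on which part of the Hoxc9 call rests, is among the arrays with low Gapdh 5′ signal. The 2 BP14A day 4 arrays had a Gapdh 5′ minus 3′ log2 signal of -4.66 and -2.99, against -1.03 and -0.58 at day 2, and its part in this result was not tested.

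The 2 routes to PGCLCs differed in 5 anterior genes and 1 posterior gene at day 2, and in 1 central and 5 posterior genes at day 4; clone differs with the route. At day 2, BP14A cells were lower than Ck cells in 6 of 31 genes and higher in 0 (7.01% of all genes were lower): Hoxb1 (-8.46 ± 0.46), Hoxb2 (-6.61 ± 0.59), Hoxa2 (-4.14 ± 0.65), Hoxd9 (-2.85 ± 0.46), Hoxb3 (-2.53 ± 0.69) and Hoxd1 (-1.55 ± 0.43). Of those not yet given, Hoxd9 had 4.08 and 4.11 in BP14A cells against 6.92 and 6.98 in Ck cells, and Hoxd1 2.00 and 3.11 against 4.31 and 3.90. At day 4, BP14A cells were lower in 6 genes with paralogue numbers 8 to 13 and higher in 0 (2.74% of all genes were lower). Hoxd9 had 2.94 and 4.41 in BP14A day 4 cells against 7.51 and 7.39 in Ck day 4 cells (-3.78 ± 0.46, adjusted p = 2.39e-05), and Hoxc10 2.46 and 1.58 against 5.95 and 5.74 (-3.83 ± 0.53, adjusted p = 8.14e-05). Hoxd10 had 0.71 and 1.31 against 4.14 and 4.60 (-3.36 ± 0.65, adjusted p = 0.00201), Hoxc8 1.60 and 2.54 against 4.90 and 4.58 (-2.68 ± 0.50, adjusted p = 0.00154) and Hoxa10 3.67 and 3.90 against 6.08 and 5.84 (-2.17 ± 0.35, adjusted p = 0.000453). Hoxc13 had 1.91 and 1.40 against 3.81 and 3.58 (-2.04 ± 0.60, adjusted p = 0.0321), and this call was lost without any 1 of the 4 arrays (-2.29 to -1.79). Hoxd10 had 4.00 and 3.64 in EpiLCs and 4.11 and 1.64 in BP14A day 2 cells. Neither Hoxd10 nor Hoxc13 was called in Ck day 4 cells against EpiLCs. Both BP14A day 4 arrays had a low Gapdh 5′ minus 3′ signal (-4.66 and -2.99), and its part in the day 4 calls was not tested. The Hoxb3 call at day 2 was lost without BP14A replicate 2 (-2.13) or Ck replicate 2 (-1.92), that of Hoxd1 without BP14A replicate 1 (-0.99) or Ck replicate 1 (-1.34), and that of Hoxa10 at day 4 with the mean of all its probe sets (-0.48).

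The difference between the routes in their change from day 2 to day 4 was tested as an interaction. It was positive in 3 Hox genes (6.92% of all genes), which fell in Ck cells and had no call in BP14A cells, and negative in 5 (4.92% of all genes). Hoxb1 had an interaction of 8.48 ± 0.65 (adjusted p = 8.51e-08), Hoxb2 of 5.17 ± 0.83 (adjusted p = 0.000228) and Hoxa2 of 4.54 ± 0.92 (adjusted p = 0.00176). The 5 negative ones had paralogue numbers 8 to 13: Hoxc10 (-4.10 ± 0.74), Hoxd10 (-3.18 ± 0.92), Hoxc13 (-2.94 ± 0.84), Hoxc8 (-2.59 ± 0.71) and Hoxa10 (-2.54 ± 0.50). At day 4 Hoxb1 had 3.64 and 2.78 in BP14A cells against 3.15 and 3.23 in Ck cells, and Hoxb2 2.99 and 2.98 against 4.03 and 4.82 (-1.44 ± 0.59, adjusted p = 0.132). Leaving out Ck day 2 replicate 2 cut the 8 calls to 5, by Hoxc8 (-2.56), Hoxc13 (-2.89) and Hoxd10 (-2.98). Hoxc8 was also lost without BP14A day 2 replicate 2 (-2.44), BP14A day 4 replicate 1 (-2.12) or Ck day 4 replicate 1 (-2.43). Hoxd10 was lost without BP14A day 2 replicate 1 (-1.94), BP14A day 4 replicate 1 (-2.88) or Ck day 4 replicate 2 (-2.95). Hoxc13 was lost without Ck day 2 replicate 1 (-2.99), replicate 2 of either BP14A day (-2.75 and -2.69) or Ck day 4 replicate 1 (-2.83). Hoxa10 was lost with the mean of all its probe sets (-0.27).

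**Figure D4:**
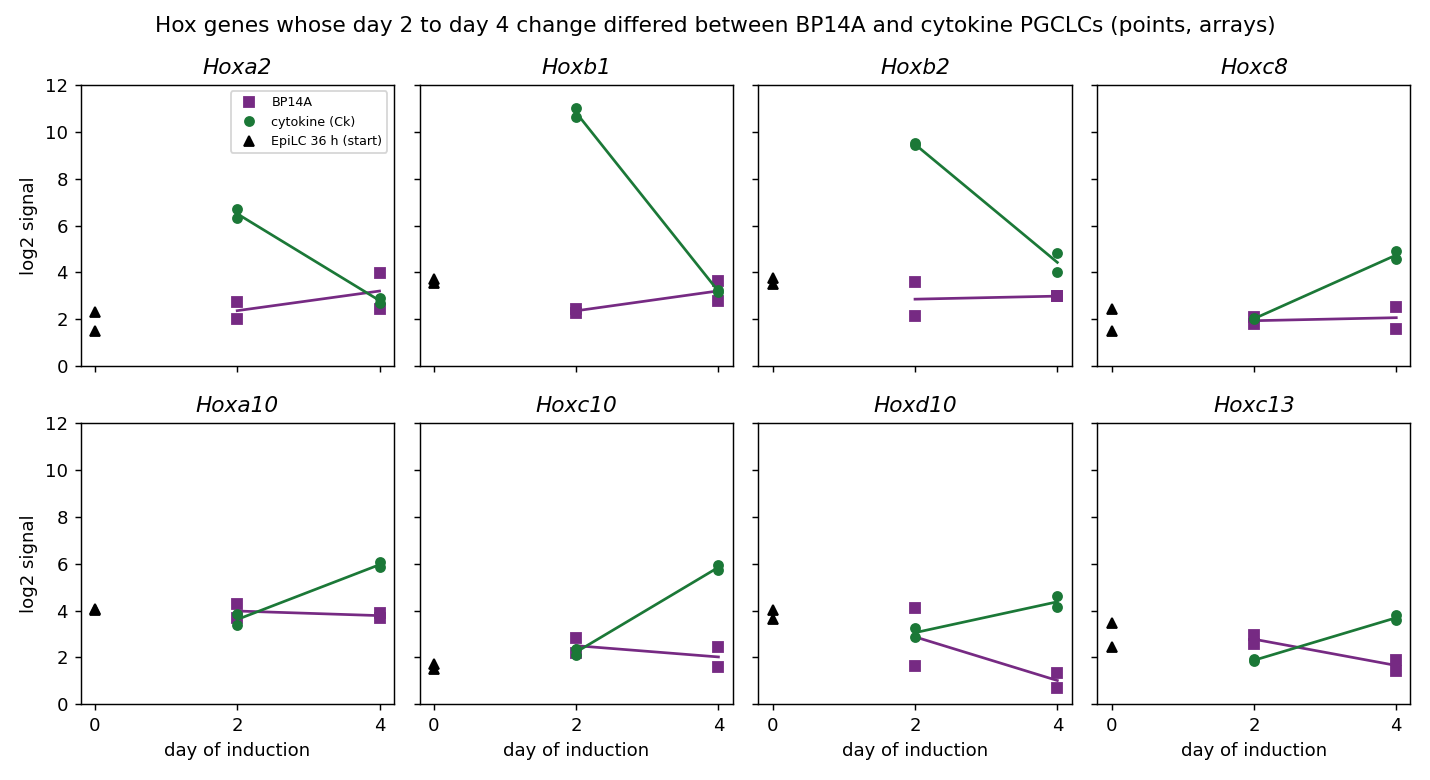
Points are arrays of EpiLCs (day 0, triangles), BP14A (squares) and Ck PGCLCs (circles), with day of induction across and log2 signal up the page; lines join group means from day 2 to day 4. Hoxa2, Hoxb1 and Hoxb2 fall in Ck cells, by up to 7.63, while Hoxc8, Hoxa10, Hoxc10 and Hoxc13 rise in them, and the BP14A arrays stay between 0.71 and 4.26 in all 8 genes.

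Against the earlier ESCs, few Hox genes differed, in a share near that of all genes. Hoxc4, a gene of cervical levels, had 2.03 and 2.62 in 48 h EpiLCs and 2.36 and 1.77 in E5.5 epiblast, against 7.93 and 6.54 in ESCs. The difference was -4.91 ± 0.75 in EpiLCs (adjusted p = 5.74e-05) and -5.17 ± 0.75 in epiblast (adjusted p = 2.26e-05), and the 2 comparisons share the ESC arrays. Hoxc10 had 2.71 and 2.62 in EpiLCs and 2.59 and 1.94 in epiblast, against 4.64 and 4.94 in ESCs (-2.12 ± 0.53, adjusted p = 0.00537, and -2.52 ± 0.53, adjusted p = 0.000986). EpiLCs were lower than ESCs in 2 of 31 Hox genes (7.09% of all genes) and higher in 0, and epiblast lower in 3 (9.43% of all genes) and higher in 0. The other was Hoxc8, with 1.31 and 1.95 in epiblast against 3.76 and 3.07 in ESCs (-1.79 ± 0.50, adjusted p = 0.0102), which was lost without ESC replicate 1 (-1.44) or epiblast replicate 1 (-1.47).

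The new arrays showed Hoxc4 in BP14A ESCs as well. It had 1.65 and 1.68 in 36 h EpiLCs against 5.92 and 4.57 in BP14A ESCs without Dox (-3.58 ± 0.75, adjusted p = 0.00124). In the stella-ECFP positive BP14A ESCs with Dox it had 1.80 and 1.0, against the same 5.92 and 4.57 without Dox (-3.85 ± 0.75, adjusted p = 0.00113). Hoxb9, a gene of thoracic levels, had 4.36 and 3.11 in EpiLCs and 3.84 and 3.62 in BP14A ESCs with Dox, against 6.44 and 6.29 in BP14A ESCs without Dox (-2.63 ± 0.51, adjusted p = 0.000609, and -2.64 ± 0.51, adjusted p = 0.00105). In the earlier ESCs, which are another line, Hoxb9 had 4.17 and 3.68. The 2 lower calls were all the Hox calls of Dox-treated against untreated BP14A ESCs, with 0 higher (3.90% of all genes were lower), and the choice of stella-ECFP positive cells cannot be told apart from Dox. Both arrays with Dox and replicate 1 without Dox had the low Gapdh 5′ signal given above, and its part in these calls was not tested. The 36 h EpiLCs are of the parental clone, so in their comparison with BP14A ESCs clone and cell state cannot be told apart. EpiLCs against BP14A ESCs had 3 lower calls (7.45% of all genes) and 1 higher call (7.17%). The others were Hoxc10, with 1.70 and 1.51 in EpiLCs against 2.67 and 3.68 (-1.57 ± 0.53, adjusted p = 0.0352), and Hoxd1, with 3.28 and 3.69 against 2.51 and 1.66 (1.40 ± 0.43, adjusted p = 0.0216). The Hoxc10 call was lost without either EpiLC array (-1.66 and -1.47) or BP14A ESC replicate 2 (-1.06), and the Hoxd1 call without EpiLC replicate 2 (1.19) or BP14A ESC replicate 2 (0.97).

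PGCs taken from E9.5 embryos carried Hox genes from anterior to posterior. Of 31 tested genes, 13 were higher than in E5.5 epiblast and 0 lower, where 8.90% of all genes were higher. The 13 comprised 5 anterior, 4 central and 4 posterior genes, and the median difference over the 33 Hox genes was 0.92, against 0.00 over all genes. Among anterior genes, Hoxb2 had 8.15 and 5.59 in PGCs against 1.95 and 3.11 in epiblast (4.34 ± 0.59, adjusted p = 1.22e-05), and Hoxb1 7.14 and 6.06 against 2.71 and 3.19 (3.65 ± 0.46, adjusted p = 4.62e-06). Hoxc4 had 8.12 and 4.40 against 2.36 and 1.77 (4.20 ± 0.75, adjusted p = 0.000254), Hoxb3 5.95 and 4.52 against 1.01 and 1.27 (4.10 ± 0.69, adjusted p = 0.000148) and Hoxa2 6.51 and 4.49 against 1.66 and 1.82 (3.76 ± 0.65, adjusted p = 0.000174). The 2 PGC arrays were apart from each other but above both epiblast arrays in all 5 genes.

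Among central genes, Hoxc8 had 7.16 and 5.44 in PGCs against 1.31 and 1.95 in epiblast (4.67 ± 0.50, adjusted p = 6.7e-07), the largest difference of the 13. Hoxb5 had 6.06 and 4.25 against 1.28 and 2.01 (3.51 ± 0.67), Hoxc5 6.21 and 4.12 against 2.16 and 2.08 (3.04 ± 0.63) and Hoxb6 7.40 and 5.26 against 4.27 and 4.37 (2.00 ± 0.48). Among posterior genes, Hoxb9 had 8.15 and 6.88 against 4.07 and 2.69 (4.14 ± 0.51, adjusted p = 3.84e-06), Hoxc10 7.34 and 5.47 against 2.59 and 1.94 (4.14 ± 0.53, adjusted p = 5.62e-06), Hoxd9 7.04 and 6.79 against 4.48 and 3.86 (2.74 ± 0.46) and Hoxa10 6.21 and 5.22 against 4.14 and 4.00 (1.65 ± 0.35). No gene with a paralogue number above 10 was called, and Hoxa13, Hoxb13, Hoxc13 and Hoxd13 had differences between -0.65 and 0.20. Among probe sets 19 of 41 were higher (7.63% of all), in 19 genes, which added Hoxa3, Hoxa4, Hoxa5, Hoxa9, Hoxc6 and Hoxd8. Probe set 1455626_at of Hoxa9 had 7.4 and 6.5 in PGCs against 3.4 and 2.5 in epiblast, and 1427454_at of Hoxc6 had 8.8 and 5.6 against 3.8 and 3.6. The Hoxb6 call was lost without PGC replicate 1 (0.93) and, with arrays of the earlier set alone, at 2.00; that of Hoxa10 was lost with the mean of all its probe sets (0.63).

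**Figure D5:**
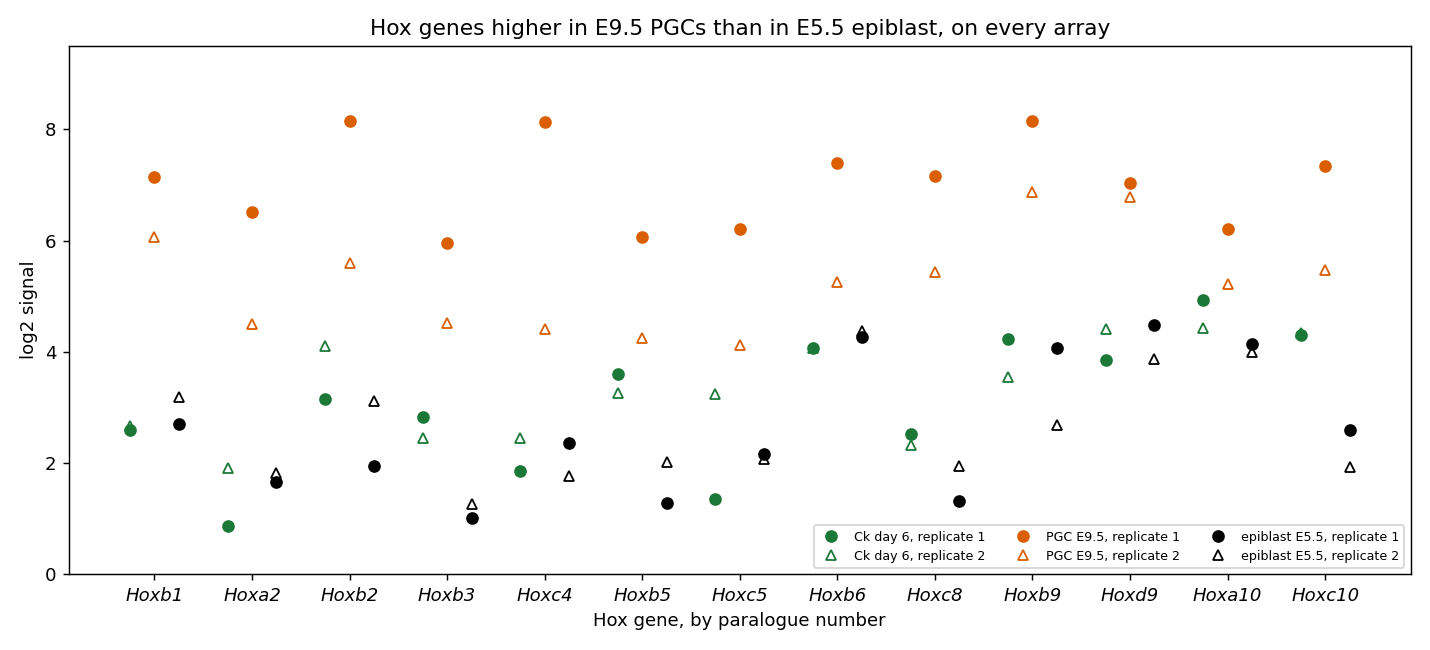
Points are arrays of Ck day 6 PGCLCs (green), E9.5 PGCs (orange) and E5.5 epiblast (black), for the 13 Hox genes higher in PGCs than in epiblast, ordered by paralogue number, with log2 signal up the page. Replicate 1 of the PGCs (filled) lies above replicate 2 (open) in all 13, from 7.04 against 6.79 for Hoxd9 to 8.12 against 4.40 for Hoxc4.

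PGC replicate 1 was above replicate 2 in 25 of the 33 Hox genes and in all 13 called genes, by a median of 1.81 in the 13, while 52% of all genes were higher in replicate 1. Markers of other cells were present in both arrays. Of 7 markers of endothelium and primitive blood, 3 were higher in PGCs than in epiblast: the embryonic globins Hba-x (12.56 and 11.44 against 4.93 and 4.97), Hbb-y (12.50 and 11.34 against 0.94 and 2.79) and Hbb-bh1 (11.33 and 9.25 against 5.07 and 5.76). The mean level of this list was 8.42 and 7.86 in PGCs against 4.68 and 5.13 in epiblast. 3 of 4 neural markers were also higher in PGCs, and their mean was 6.60 and 5.80 against 4.14 and 3.75. Both list means, like most Hox genes, were higher in replicate 1. The part of such cells in the Hox signal of PGCs was not tested. The germ cell list had a mean of 11.12 and 11.38 in PGCs.

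Ck PGCLCs at day 6 were lower than E9.5 PGCs in 13 of 31 genes and higher in 0, where 3.46% of all genes were lower. Hoxb1 had 2.59 and 2.67 in Ck day 6 cells against 7.14 and 6.06 in PGCs (-3.97 ± 0.46, adjusted p = 6.7e-06), Hoxc8 2.53 and 2.33 against 7.16 and 5.44 (-3.87 ± 0.50, adjusted p = 2.42e-05) and Hoxb9 4.24 and 3.55 against 8.15 and 6.88 (-3.62 ± 0.51, adjusted p = 5.99e-05). Other anterior genes were lower as well. Hoxa2 had 0.87 and 1.90 in Ck day 6 cells against 6.51 and 4.49 in PGCs (-4.12 ± 0.65), Hoxc4 1.86 and 2.45 against 8.12 and 4.40 (-4.11 ± 0.75), Hoxb2 3.15 and 4.11 against 8.15 and 5.59 (-3.24 ± 0.59) and Hoxb3 2.82 and 2.46 against 5.95 and 4.52 (-2.60 ± 0.69). Hoxd1 had 1.82 and 2.80 against 4.75 and 4.18 (-2.16 ± 0.43), and its neighbour in cluster d, Hoxd3, 4.25 and 5.0 against 6.12 and 5.26 (-1.06 ± 0.34). Among central and posterior genes, Hoxc5 had 1.35 and 3.24 in Ck day 6 cells against 6.21 and 4.12 in PGCs (-2.87 ± 0.63), Hoxb6 4.07 and 4.07 against 7.40 and 5.26 (-2.26 ± 0.48), Hoxd9 3.85 and 4.40 against 7.04 and 6.79 (-2.78 ± 0.46) and Hoxc10 4.30 and 4.33 against 7.34 and 5.47 (-2.09 ± 0.53). Without PGC replicate 1 the count was 8, and the calls of Hoxb3 (-1.88), Hoxb6 (-1.19), Hoxc5 (-1.82), Hoxc10 (-1.15) and Hoxd3 (-0.63) were lost. Without Ck day 6 replicate 1 those of Hoxb3 (-2.78), Hoxc5 (-1.92), Hoxc10 (-2.07) and Hoxd3 (-0.69) were lost. Without Ck day 6 replicate 2 those of Hoxb3 (-2.41) and Hoxc10 (-2.10) were lost. With arrays of the earlier set alone, the calls of Hoxb2, Hoxc4, Hoxb6, Hoxc5, Hoxc10 and Hoxd3 were lost. That of Hoxd3 was also lost with no filter, with the mean of all probe sets and with trend and robust options. Both this comparison and that of PGCs with epiblast rest on the same 2 PGC arrays. Of 7 endothelial and primitive blood markers, 3 were lower in Ck day 6 cells than in PGCs, the globins Hba-x, Hbb-bh1 and Hbb-y. Cdh5 and Tek were higher. Of 4 neural markers, Sox1 and Neurog2 were lower and 0 higher. The part of cells other than PGCs in the 13 Hox calls was not tested.

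Against 48 h EpiLCs, Ck day 6 cells were higher in 1 of 31 Hox genes and lower in 0, where 9.26% of all genes were higher. Hoxc10 had 4.30 and 4.33 at day 6 against 2.71 and 2.62 in EpiLCs (1.65 ± 0.53, adjusted p = 0.021), and its call was lost without any 1 of the 4 arrays (1.61 to 1.70) and with arrays of the earlier set alone. On probe sets, Hoxa3, Hoxa5, Hoxd8 and Hoxd13 were also higher, at low levels or with EpiLC arrays far apart. At day 6, 1448926_at of Hoxa5 had 2.2 and 3.1, against 0.0 and 0.3 in EpiLCs. For Hoxd8, 1433638_s_at had 4.5 and 4.1 against 1.5 and 3.1, and for Hoxd13, 1422239_at had 3.7 and 4.3 against 3.3 and 1.1. For Hoxa3, 1452421_at had 5.1 and 4.9 against 3.4 and 4.5. Day 6 values cannot be set against days 2 and 4 by a test, since those arrays belong to another set and another line; Hoxd9 had 3.85 and 4.40 at day 6, and 7.51 and 7.39 at day 4.

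Genes that act with the Hox clusters were read from lists, and their counts are to be read beside the shares of all genes given above for the same comparisons. Of the Cdx and Evx genes, homeobox genes that flank or act on the Hox clusters, 3 of 5 were higher in Ck day 2 cells than in EpiLCs: Cdx2 (9.13 and 9.01 against 0.69 and 1.45), Evx1 (11.02 and 11.04 against 4.02 and 4.13) and Cdx1 (9.21 and 8.84 against 3.68 and 3.63). The same 3 were higher in parental cells with Dox, where Cdx1 had 9.22 and 8.70, Evx1 8.87 and 8.78 and Cdx2 7.56 and 5.39. In Ck day 2 against parental cells with Dox, Evx1 (2.21 ± 0.24) and Cdx4 (2.40 ± 0.62) were higher; Cdx4 had 4.84 and 4.94 against 3.24 and 1.74. 3 of 5 were lower than in parental cells with Dox in each of the 4 transgenic groups, and in BP14A cells Cdx1 was lower by 5.17 ± 0.26, Evx1 by 5.07 ± 0.24 and Cdx2 by 4.98 ± 0.79. In E9.5 PGCs against epiblast 2 of 5 were higher, Cdx2 (6.98 and 7.37 against 4.47 and 4.20) and Cdx1 (5.65 and 5.46 against 3.51 and 3.78). In ESCs, where Hoxc4 was high, Cdx1 was high as well, at 3.63 and 3.45 in 48 h EpiLCs against 7.83 and 7.90 in ESCs.

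Of 8 measured TALE cofactor genes, Meis2, Meis3 and Pknox2 were higher than in EpiLCs in both Ck day 2 and parental cells with Dox, and all 3 were lower than in parental cells in each of the 4 transgenic groups. Meis2 had 5.85 and 5.58 in BP14A day 2 cells and 9.61 and 9.38 in Ck day 2 cells, against 10.41 and 9.79 in parental cells with Dox (BP14A difference -4.38 ± 0.27, adjusted p = 5.67e-10). In PGCs 4 of 8 were higher than in epiblast, namely Pbx2, Meis2, Meis3 and Pknox2, with 8.86 and 7.78 against 5.26 and 5.33 for Meis2. Of 15 measured genes of retinoic acid synthesis, breakdown and response, 12 were tested. Of these, 3 were higher in Ck day 2 than in EpiLCs, Rdh10, Cyp26a1 and Rarb. In BP14A day 2 cells 7 were lower and 1 higher than in parental cells with Dox. Dhrs3, which reduces retinal, had 2.96 and 2.25 in BP14A cells against 6.86 and 7.79 in parental cells with Dox (-4.72 ± 0.49). Crabp2 and Crabp1, which bind retinoic acid in the cell, were lower by 3.63 ± 0.47 and 2.59 ± 0.55. Cyp26a1, which breaks retinoic acid down, had 5.24 and 5.42 against 7.78 and 8.31 (-2.72 ± 0.33). Rdh10, Rarb and Rarg were the other lower genes and Aldh1a2 the higher one.

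Of 17 measured Polycomb genes, 4 were higher and 1 lower in BP14A day 2 cells than in parental cells with Dox. Of all 15497 tested genes 1028 were higher and 1123 lower in this comparison. Phf19 had 9.64 and 9.24 in BP14A cells against 5.26 and 5.82 in parental cells with Dox (3.90 ± 0.22, adjusted p = 1.73e-10). Jarid2, which guides the complex that methylates histone H3, had 11.41 and 11.41 against 9.68 and 9.56 (1.79 ± 0.17, adjusted p = 2.05e-07), and Cbx7 10.63 and 10.78 against 9.29 and 9.53 (1.30 ± 0.19). Phc2 was the lower one, at 8.80 and 9.25 against 10.30 and 10.34, and Suz12 the remaining higher one. From day 2 to day 4 in Ck cells Jarid2, Phf19 and Cbx7 rose and Phc2 fell. Of 8 Trithorax genes, which act against Polycomb, Kdm6b was lower in P14A than in parental cells with Dox (-1.27) and in Ck day 6 cells than in 48 h EpiLCs (-1.96), and Ash2l was lower in epiblast than in ESCs (-1.22).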

How the data were processed

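Expression was measured on Affymetrix mouse whole-genome arrays with biotin-labelled cRNA, from 32 samples in 16 groups of 2. The authors deposited 1 table of 45101 probe sets whose values, between 0 and 14.59, were read as log2 signal from their range; the software behind them is not given in the sources used here. Per the labels, RNA was amplified (about 20000 cells in the series' design text).

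The deposited log2 values were quantile normalized between arrays. 64 control probe sets were left out, 34945 probe sets had 1 gene symbol in the platform annotation, 932 had several and 9160 were not listed. Each of 18193 genes was represented by its probe set with the highest mean, which sets no gene's level against another's. Genes with a group mean at or above the 40th percentile (log2 4.05) in at least 1 group, 15497 in all, were tested with limma 3.58.1 in R 4.3.3, with 1 mean per group, 16 residual degrees of freedom and contrasts within the new or the earlier arrays only. P-values were adjusted by Benjamini-Hochberg over these genes, and a call needed an adjusted p under 0.05 and a 2-fold difference. SE is limma's moderated standard error. The fit was tested on simulated data with changed genes of known size. Figures were drawn with matplotlib 3.10.9.

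Hox genes with a call are given with their array values in the groups they are described in, and the others by range and count; from the lists of Cdx and Evx, TALE, retinoic acid, Polycomb and Trithorax genes, up to 4 called members by size of change are given in the comparison described. The Hox genes and all lists were chosen with earlier results of these data known. Alternatives were the deposited values, median centring, the mean of all probe sets, no filter or the 60th percentile, trend and robust options, a replicate block, arrays of 1 set only, each array left out in turn and, added after the data were seen, a fit of every probe set.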

Additional observations from a re-analysis of the deposited data

Results flagged for a closer look

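The change from day 2 to day 4 differed between BP14A and Ck PGCLCs in 8 Hox genes, by the limma interaction test. The difference, BP14A change minus Ck change in log2 units, was 8.48 for Hoxb1, 5.17 for Hoxb2 and 4.54 for Hoxa2, all anterior genes. It was -4.10 for Hoxc10, -3.18 for Hoxd10, -2.94 for Hoxc13, -2.59 for Hoxc8 and -2.54 for Hoxa10, with paralogue numbers 8 to 13. The BP14A day 4 arrays had a low Gapdh 5′ signal, and its part in these values was not tested.

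Probe sets in the Hox clusters whose annotation gives several symbols or an antisense transcript lay outside the genes described. 5 of them were tested and 4 had a call in at least 1 comparison, where 47.2% of all tested genes had one. The share over all probe sets is not given. The probe set annotated to both Hoxb8 and Hoxb7 was higher by 2.98 in Ck day 2 cells than in EpiLCs (adjusted p = 0.0059) and by 4.30 in E9.5 PGCs than in epiblast. It was lower in BP14 cells than in parental cells with Dox (-2.78), in BP14A than in Ck cells at day 2 (-2.64) and in Ck day 6 cells than in PGCs (-2.42). Hoxb5os, annotated as an opposite-strand transcript at Hoxb5, was higher by 1.21 in Ck day 4 cells than in 36 h EpiLCs (adjusted p = 0.0298), by 1.37 in Ck day 6 cells than in 48 h EpiLCs and by 4.01 in PGCs than in epiblast, and lower in Ck day 6 cells than in PGCs (-2.40). A probe set annotated to both Hoxd4 and Hoxd3 was higher by 3.61 in PGCs than in epiblast and lower in Ck day 6 cells than in PGCs (-4.75). Hoxd3os1, annotated as an opposite-strand transcript at Hoxd3, was higher by 4.45 ± 1.20 in BP14A ESCs with Dox, at 5.76 and 4.92, than in those without, at 1.77 and 0.00 (adjusted p = 0.02). Its replicates lay far apart in 48 h EpiLCs (4.28 and 0.47) and in epiblast (3.09 and 0.03). Of the other arrays with low Gapdh 5′ signal, those of BP14A day 4 had 5.35 and 4.75, and replicate 1 of 36 h EpiLCs and of BP14 cells had 2.81 and 2.35. Arrays without a low Gapdh 5′ signal varied as well. Ck day 6 cells had 5.76 and 4.36, E9.5 PGCs 4.43 and 3.21 and P14 cells 0.53 and 0.64. The part of the Gapdh 5′ signal in this call was not tested. Signals of a probe set shared by 2 genes cannot be assigned to 1 of them.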

How the results depend on the processing

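No called Hox gene changed direction under any alternative run. Of 101 calls of a gene in a comparison, 100 held on the deposited values, 99 with median centring, 97 with no filter, 94 with trend and robust options, 88 with arrays of the same set only, 86 of the 93 that could be set against it with the mean of all probe sets, and all 75 that passed the 60th percentile filter. 73 held in every fit without 1 array and 28 were lost in at least 1; those are named in the report. The mean of all probe sets gave 7 Hox calls for Ck day 2 against EpiLCs, 6 for parental cells with Dox against EpiLCs, 2 for Ck day 2 against parental cells and 3 for Ck day 6 against 48 h EpiLCs. Every probe set, added after the data were seen, gave 8, 5, 2 and 5 genes in the same comparisons, and 4 for 48 h EpiLCs against ESCs; there, probe sets of a gene disagreed. The 60th percentile filter, which tests fewer genes, left 3 calls for BP14A and 3 for BP14 day 2 against parental cells and 1 for BP14A day 2 against EpiLCs. Ck day 6 against 48 h EpiLCs had 2 calls on the deposited values and 0 with the earlier arrays only, and Ck day 6 against PGCs had 7 with the earlier arrays only, where fewer arrays estimate the spread.

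Without 1 array, with the lone array assumed to vary like the other groups, counts ranged from 4 to 5 for BP14A, 3 to 7 for BP14, 3 to 4 for P14A and 4 to 5 for P14 against parental cells; from 0 to 2 for BP14A day 2 against EpiLCs; from 0 to 1 for BP14A day 4 against day 2; 5 for BP14A against Ck on either day; and from 5 to 8 for the interaction. They ranged from 3 to 4 for parental cells against EpiLCs, 1 for Ck day 2 against parental cells, 4 to 5 for Ck day 2 and 4 to 5 for Ck day 4 against EpiLCs, 6 to 7 for Ck day 4 against day 2, 3 to 4 for EpiLCs against BP14A ESCs and 2 to 3 for BP14A ESCs with against without Dox. For the earlier arrays they ranged from 2 to 3 for EpiLCs and 2 to 4 for epiblast against ESCs, 0 to 2 for Ck day 6 against EpiLCs, 12 to 15 for PGCs against epiblast and 8 to 16 for Ck day 6 against PGCs. BP14 against parental cells had 3 without BP14 replicate 1 or parental replicate 2, and Ck day 6 against PGCs 8 without PGC replicate 1.

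The labels give replicates a number and no shared culture or day. Differences between replicate arrays correlated across groups at -0.2189 to 0.4756 in the new arrays; in the earlier arrays all were positive, at 0.2433 to 0.5219, a hint of pairing from the data that 2 numbers cannot settle. With the replicate block all 101 calls held, and the counts were 9 for Ck day 4 against day 2, 5 for EpiLCs against BP14A ESCs, 3 for BP14A day 2 against EpiLCs and 15 for Ck day 6 against PGCs, and those of the report elsewhere. Scaling moved the median of all genes for Ck day 2 against EpiLCs to 0.07 on the deposited values, against -0.04, and the share of higher calls among all genes to 69.5%, against 58.2%; for BP14A day 4 against day 2 that share was 77.4%, against 65.3%.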
